A study of Rattus norvegicus with 15 samples.

Results

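Luo-tong formula (LTF) treatment was compared with the untreated diabetic retinopathy (DR) model in the peripheral blood of rats, using the 3 arrays of LTF rats and the 3 arrays of DR model rats among the 15 arrays of the study. The members were chosen by their labelled treatment, and all 172669 probes of each array that are not control spots were described by probe length class, by chromosome and by runs of neighbouring probes. LTF is the herbal formula the study set out to test, and the comparison asks how blood DNA methylation in LTF-treated diabetic rats stands against that in the model.

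All 6 rats were male Sprague Dawley rats of 20 weeks, and all had received 45 mg/kg streptozotocin into a vein, so the diabetes-inducing toxin is shared by both groups. The DR model rats were gavaged with distilled water, and the labels name no insulin for them. The LTF rats were gavaged with 2 g/kg of formula per day, as herb weight, and also received 1.5 IU of insulin per day by injection into a vein. The LTF difference therefore cannot be told apart from that of insulin. Per the labels' protocols the rats were called diabetic from their blood glucose, and no readout of the retina was used here. The 9 remaining arrays, 3 each from citrate-injected controls, from model rats given calcium dobesilate (CaD, 0.25 g/kg per day, with 1.5 IU of insulin) and from model rats given another formula of unstated dose, enter the shared estimate of spread and are set beside the result at the end.

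Methylation of cytosine next to guanine is a stable chemical mark on DNA, kept through cell division by maintenance methyltransferases, and dense methylation at a promoter usually goes with a silent gene. Streptozotocin destroys the insulin-producing beta cells of the pancreas, and the raised glucose that follows damages small vessels, including those of the retina. Blood is a mixture of white cell types that each carry a methylation pattern of their own. In methylated DNA immunoprecipitation (MeDIP), an antibody recovers DNA fragments with methylated cytosine, and here the recovered DNA carried Cy5 and the input DNA Cy3. The value of a probe is log2(MeDIP/input) with the array's median set to 0, so it is a relative enrichment and not a percentage of methylated molecules.

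Probe sequences and gene names were not used here, so regions are given by their position on the rn4 rat assembly and no gene, exon or promoter is named for them. Probes closer than 500 bp to the one before were joined, and runs of at least 3 probes gave 16782 regions, which typically held 10 probes and spanned 1655 bp (medians). The log2 ratios correlated at 0.923 to 0.938 between LTF arrays, at 0.866 to 0.927 between DR model arrays and at 0.846 to 0.913 across the groups. MeDIP signal was well above background at 87.5% to 90.0% of probes on LTF arrays and at 77.6% to 88.2% on DR model arrays. Between 7186 and 10700 spots per LTF array and between 235 and 4540 per DR model array carried an outlier mark and were left out. The LTF arrays were scanned together in a scan and on a scan day that held no other array, so scan and treatment cannot be told apart. Each DR model array came from a different scan, on scan days 3, 1 and 3 for replicates 1, 2 and 3. The closer correlation between LTF arrays therefore cannot be told apart from their shared scan.

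Few regions passed the threshold, and among those LTF was more often lower. Of 16782 regions, 151 (0.900%) differed at an adjusted p under 0.05 in limma, 40 higher under LTF (0.238%) and 111 lower (0.661%). The 40 higher regions differed by 0.29 to 0.79 on the log2 scale, with a median of 0.43, and the 111 lower ones by -0.84 to -0.25, with a median of -0.38. Over all regions the median difference was -0.02. In all 151 regions the LTF arrays lay entirely to one side of the DR model arrays, as they did in 3412 regions in all (20.3%), 1126 higher (6.71%) and 2286 lower (13.6%). Other scalings moved the split: normexp background correction gave 138 higher and 206 lower, quantile normalization 64 and 111, and centring within probe length classes 37 and 351. Blood cell types could not be checked without gene names, so a shift in cell makeup and a shift within cells cannot be told apart.

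The 151 depended on how spots missing on the LTF arrays were handled. An outlier spot is left out on its own array, so a region mean can be taken over different probes in the groups. In all, 2868 probes had no value on any LTF array and 23 had none on any DR model array, and a probe absent from LTF lay in 38 of the 151 regions (25.2%) and in 2507 of all regions (14.9%). When each probe's mean over the arrays that measured it was subtracted before averaging, a setting added after the data were seen, 52 regions (0.310%) passed, 19 higher (0.113%) and 33 lower (0.197%). Of these, 47 were among the 151, namely 15 higher and 32 lower, and they are called the 47 regions in what follows. The other 104 regions no longer passed, although none of the 151 changed direction. The difference moved by at least 0.1 at 34 of the 151 and by less than 0.01 at 55. With only probes measured on all 15 arrays, 18 regions passed, 3 higher and 15 lower, 14 of them among the 151.

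The counts rested on single arrays. Without DR model replicate 1, 2 or 3 they were 0, 5 and 1307, and without LTF replicate 1, 2 or 3 they were 0, 5 and 5. At the settings without DR model replicate 1 and without LTF replicate 1, 2601 and 2416 regions still had an unadjusted p under 0.05 in limma, against 3261 with all arrays. After subtraction of probe means, the counts without DR model replicate 1, 2 or 3 were 0, 0 and 1569, and without LTF replicate 1, 2 or 3 they were 0, 2 and 0. DR model replicate 3 was the DR model array nearest to the LTF mean in 98 of the 151 regions (64.9%) and in 47.8% of all regions. With scan as a random block no region passed in limma, and 1470 had an unadjusted p under 0.05. That fit put the correlation between arrays of the same scan at 0.39, while the main fit took all arrays as independent.

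**Figure D1:**
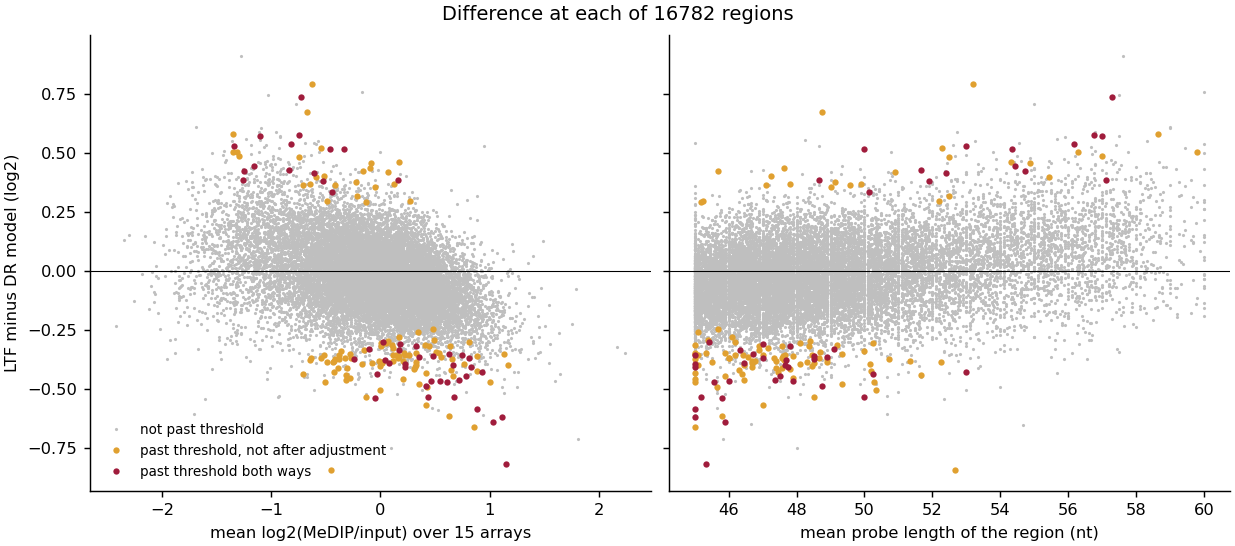
Each point is 1 of 16782 regions; the vertical axis is the LTF mean minus the DR model mean (log2), against the region's mean log2(MeDIP/input) over 15 arrays (left) and its mean probe length in nt (right). Dark red marks the 47 regions past the threshold both as averaged and after subtraction of probe means, yellow the other 104 of the 151; higher regions lie mostly at low ratios and long probes, lower ones at high ratios and short probes.

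Among regions with a higher ratio under LTF, the 12 with the smallest p are labelled H1 to H12. They differed by 0.38 to 0.74 and held 3 to 11 probes each, and 9 of the 12 are among the 47 regions. H1, at chr1:142339755-142341352 with 8 probes over 1598 bp, read -0.97, -1.01 and -0.85 on the DR model arrays and -0.33, -0.43 and -0.33 on the LTF arrays. All its LTF arrays stood above all DR model arrays, by 0.58 (SE 0.0743, adjusted p = 0.0149), and no spot of H1 was left out on any of these 6 arrays. Of its 8 probes 7 were higher, and the probe at one end, 769 bp from the centre, differed by 2.03 while the rest lay between -0.03 and 0.75.

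H2, a region of 4 probes at chr4:152878080-152878642, read -0.86, -0.85 and -0.62 in the DR model and -0.26, -0.34 and -0.18 under LTF. The groups did not overlap and differed by 0.52 (SE 0.0818, adjusted p = 0.0245). A single probe of 60 nt differed by 1.82 and the other 3 by 0.04 to 0.15, so the region mean rested on that probe. With only probes well above background on all 15 arrays the difference at H2 was 0.09. H5, 3 probes at chr4:179829450-179829835, had the same make-up, with a 60 nt probe at 1.19 and the others at 0.14 and 0.21. It read -0.39, -0.78 and -0.45 in the DR model and 0.02, 0.04 and -0.15 under LTF, and the difference was 0.51 (SE 0.0955, adjusted p = 0.0336). H10, 3 probes at chr13:80016481-80017144, likewise held 1 probe at 0.96 and the others at 0.09 and 0.10. Its arrays read -0.25, -0.10 and -0.03 in the DR model and 0.25, 0.35 and 0.18 under LTF.

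H6 and H8 differed along their length. At H6, chr18:60769-61836, all 7 probes were higher under LTF, by 0.22 to 1.11. The arrays read -1.58, -1.62 and -1.38 in the DR model and -0.95, -1.26 and -0.78 under LTF, a difference of 0.53 (SE 0.0996, adjusted p = 0.0336), and LTF replicate 2 lay nearest to the DR model. At H8, chr3:16520212-16521846, 8 of 9 probes were higher, with probe differences of -0.37 to 0.96, and the arrays read -1.31, -1.50 and -1.23 and -0.94, -0.82 and -0.95. H11, chr8:18791272-18792896, had 7 of 9 probes higher and its last 5 probes, all of 60 nt, at 0.44 to 1.45. It read -1.20, -1.45 and -1.24 in the DR model and -0.57, -0.64 and -0.98 under LTF, where LTF replicate 3 stood below the other two.

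H4 on the X chromosome, chrX:128789630-128790740, had the largest difference among the 12, 0.74 (SE 0.119, adjusted p = 0.0245), and 0.66 after subtraction of probe means. DR model replicate 3 read -0.57 there and the other DR model arrays -1.12 and -1.16, and the LTF arrays read -0.10, -0.32 and -0.22. H7, chr11:42451383-42453107, differed by 0.43 (SE 0.0805, adjusted p = 0.0336) with 6 of 9 probes higher and 3 lower. H3 at chr12:20076362-20076997, H9 at chr1:24278541-24280303 and H12 at chr10:56639982-56641375 did not pass after subtraction of probe means, where their differences were 0.52, 0.30 and 0.33 (limma adjusted p = 0.0629, 0.0884 and 0.0508), against 0.67, 0.42 and 0.38 before it.

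**Figure D2:**
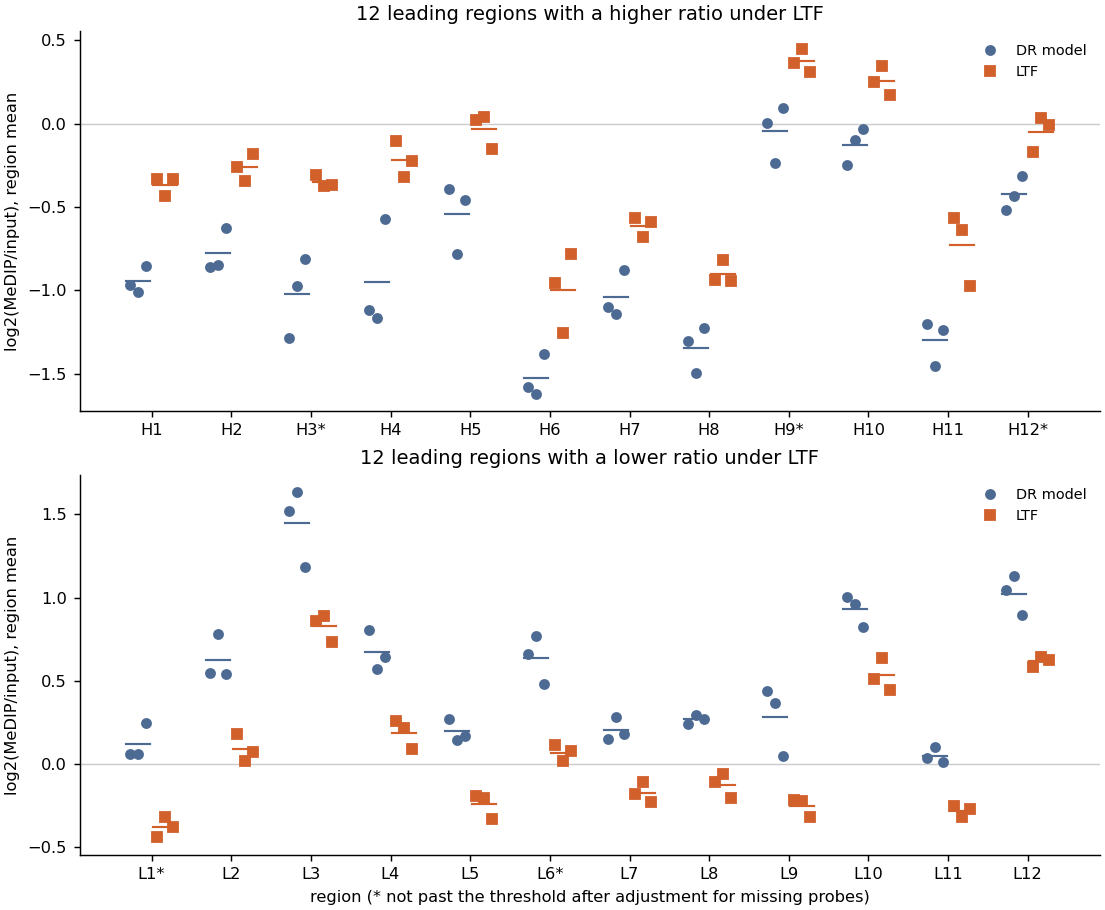
Region mean log2(MeDIP/input) on each DR model array (circles) and each LTF array (squares), with group means as bars, for regions H1 to H12 (top) and L1 to L12 (bottom); an asterisk marks the regions that did not pass after subtraction of probe means. The arrays of the groups do not overlap at any of the 24 regions, which the naming rule required.

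Among regions with a lower ratio under LTF, L1 to L12 differed by -0.62 to -0.33, and 10 of the 12 are among the 47 regions. L3, 5 probes of 45 nt at chr11:32282769-32283498, had the largest difference, -0.62 (SE 0.0987, adjusted p = 0.0245). It read 1.52, 1.63 and 1.19 in the DR model and 0.86, 0.89 and 0.73 under LTF, above the array median in both groups. All 5 probes were lower, by -0.84 to -0.22, and after subtraction of probe means the difference was -0.56. L8, 11 probes at chr9:43206712-43208409, read 0.24, 0.29 and 0.27 in the DR model, the tightest DR model values of the 24 regions, and -0.11, -0.06 and -0.20 under LTF. No spot of it was left out on these arrays, 10 of 11 probes were lower, and the difference was -0.39 (SE 0.0649, adjusted p = 0.0245). Its largest probe differences, -1.17, -1.04 and -0.88, came from probes of 46 to 52 nt on the left of the region, and with a region median in place of the mean the difference was -0.06.

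L5, 8 probes at chr5:114912279-114913756, read 0.27, 0.15 and 0.17 in the DR model and -0.19, -0.20 and -0.33 under LTF. LTF thus lay below the array median and the DR model above it, with 7 of 8 probes lower and a difference of -0.44 (SE 0.0695, adjusted p = 0.0245). L7, 10 probes at chr6:32151794-32153440, crossed the median in the same way, from 0.20 ± 0.07 (SD, n = 3) to -0.17 ± 0.06 (SD, n = 3), with 9 of 10 probes lower. L11, 10 probes at chr14:18534428-18536019, read 0.04, 0.10 and 0.01 in the DR model and -0.25, -0.32 and -0.27 under LTF, also with 9 of 10 probes lower. A single probe stood out in each, at -1.37 in L7 and -1.31 in L11. The other probes lay between -0.84 and 0.29 in L7 and between -0.61 and 0.13 in L11. L10 at chr7:139197599-139198573 and L12 at chr9:9087428-9089072 were enriched in both groups, and all their probes were lower under LTF, 6 and 8 in number. L10 read 1.00, 0.96 and 0.83 and 0.51, 0.64 and 0.45, and L12 1.04, 1.13 and 0.89 and 0.58, 0.64 and 0.62, DR model first.

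L4 at chr10:99858561-99860134 had 7 of 8 probes lower and a difference of -0.48 (SE 0.0773, adjusted p = 0.0245), which was -0.44 after subtraction of probe means. L2 at chr20:4040890-4041642 lacked 1 of its 5 probes on every LTF array, and its 4 measured probes were lower by -0.73 to -0.08. It read 0.54, 0.78 and 0.54 in the DR model and 0.18, 0.02 and 0.07 under LTF, and its difference moved from -0.53 to -0.47 on subtraction. L9 at chr1:76513343-76514065 owed much of its difference of -0.54 (SE 0.0893, adjusted p = 0.0245) to a 45 nt probe at -1.72, the other 4 lying between -0.40 and 0.06.

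Of the 24 regions L1 moved most with the missing spots. It holds 3 probes at chr1:82039053-82039420 and had the smallest p of all lower regions, with 0.06, 0.06 and 0.25 in the DR model, -0.44, -0.32 and -0.38 under LTF and a difference of -0.50 (SE 0.0684, adjusted p = 0.0152). Its middle probe, at 1.00 to 1.21 on the DR model arrays, had no value on any LTF array. The outer probes differed by -0.42 and 0.37, in opposite directions. After subtraction of probe means the difference was -0.05 (SE 0.0672, limma adjusted p = 0.703) and the call was lost. L6 at chr4:165653728-165654254 had all 4 probes lower, by -0.47 to -0.36, and moved from -0.57 to -0.41 (limma adjusted p = 0.0689) on subtraction.

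Most of the 24 differences were smaller under normexp background correction, where 21 shrank by over 1.5 times and 11 lost the call. H1, H2 and H4 stood there at 0.13, 0.12 and 0.12, and L7, L9 and L11 at -0.12, -0.08 and -0.08, while L1, L3 and L12 shrank by less. In the authors' deposited table the differences of 22 regions shrank by over 1.5 times and 13 lost the call, with H9 at 0.07 and L1 at -0.03. With loess 7 shrank by over 1.5 times, and with quantile normalization 0 did. The other settings that shrank any of them so were probes well above background (8 of 19), region medians (5 of 24), a gap of 1000 bp (3 of 24), probes measured on all 15 arrays (2 of 23) and, for 1 region each, a gap of 250 bp, outlier spots kept and subtraction of probe means, whose combinations with a further change did so for 1 to 3. With probes well above background, H2 and H9 stood at 0.09 and 0.06.

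**Figure D3:**
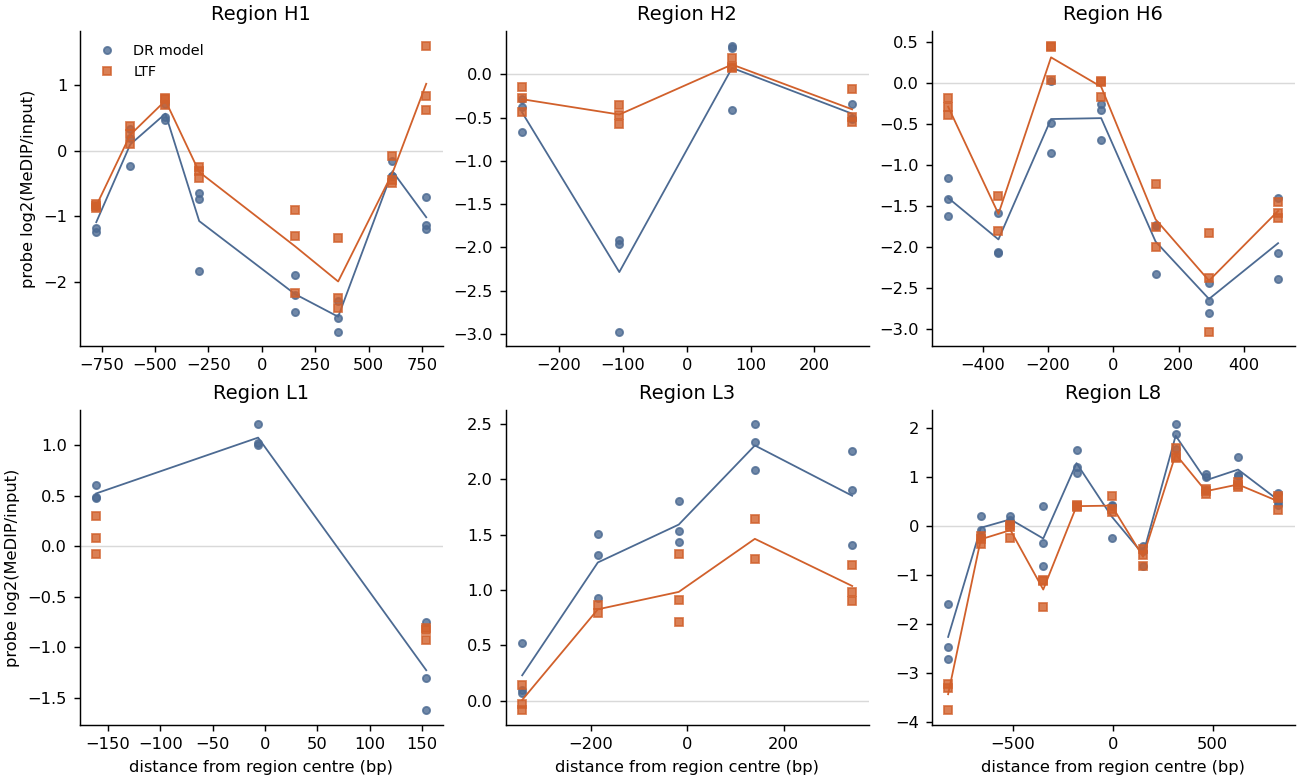
Probe values of log2(MeDIP/input) against distance from the region centre in bp, for 3 regions higher under LTF (H1, H2, H6) and 3 lower (L1, L3, L8); points are arrays and lines group means. H2 differs at 1 probe, H6 and L3 along the region, and the middle probe of L1 has no LTF value.

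The longest run of neighbouring probes at which every LTF array lay below every DR model array covered a whole region. It held all 9 probes of chr14:103656593-103657888, over 1296 bp, with a mean length of 45.3 nt, with probe differences of -1.12 to -0.24. The region read 1.85, 1.80 and 1.32 on the DR model arrays and 0.86, 0.81 and 0.85 on the LTF arrays. DR model replicate 3 was the lowest of its group, and the difference was -0.81 (SE 0.164, adjusted p = 0.0387) with no spot left out. The region is among the 47. The next run, 8 probes at chrUn:427098-428354, differed by -0.66 on average, but its region of 11 probes did not pass (limma adjusted p = 0.0685). The third, 7 probes at chr19:628563-629547, differed by -0.78 and lay in a region of 11 probes, chr19:628096-629875, that differed by -0.46 (SE 0.0891, adjusted p = 0.0342), and by -0.54 after subtraction of probe means.

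Runs of at least 4 such probes were 97 on the lower side and 9 on the higher side. Single probes with no overlap between the groups made up 14.4% of the 152494 probes measured on all 6 arrays on the lower side and 8.96% on the higher side. Of the 97 lower runs 81 held 4 probes, 12 held 5 and 4 held 6 to 9, and 10 lay in a region among the 151. All 9 higher runs held 4 probes and none lay in such a region. The higher runs with the largest differences were at chr3:72088424-72089335, with 0.79 over 4 probes of 60 nt, at chr8:44568705-44569620, with 0.74, and at chr7:71216489-71217321, with 0.64. Under normexp background correction 67 runs were higher, so the contrast between few higher and many lower runs depended on that step.

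No 3 of the 151 regions of the same direction followed each other at gaps of at most 250000 bp, and 3 pairs did. The higher pair joined chr11:42296979-42298753, at 0.43, with H7, both also called after subtraction of probe means, and the 4 regions between them differed by 0.00054 to 0.43, with a median of 0.16. One lower pair joined chr8:114705227-114706885, at -0.38, with chr8:114794468-114796002, at -0.41, and the region between them differed by -0.07. After subtraction of probe means this pair stood at -0.25 and -0.08 (limma adjusted p = 0.143 and 0.604), and both calls were lost. The other lower pair joined chr1:82005624-82007298, at -0.38, with L1. That region too lost its call on subtraction, at -0.10 (limma adjusted p = 0.486), as L1 did.

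Probe length split the comparison by direction. Agilent tiling probes vary in length so as to balance melting temperature, and short probes are usually richer in G and C. Probes of 45 nt, 84007 in number, read 0.38, 0.41 and 0.32 on the DR model arrays and 0.27, 0.32 and 0.26 on the LTF arrays. Every LTF array thus lay below every DR model array, the means being 0.37 ± 0.04 and 0.28 ± 0.03 (SD, n = 3 each) and the difference -0.09 (exact two-sided permutation test, p = 0.1, the smallest that 3 against 3 can give). Probes of 60 nt, 23710 in number, read -1.10, -1.13 and -0.95 in the DR model and -0.86, -0.93 and -0.98 under LTF. Here the groups overlapped, since DR model replicate 3 lay above LTF replicate 3, and the difference was 0.14 (exact permutation p = 0.2).

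The classes between them fell in order. Differences were -0.0028 for 46 to 49 nt, 0.04 for 50 to 54 nt and 0.08 for 55 to 59 nt (exact permutation p = 1, 0.4 and 0.4), with overlap in each, and the smallest p adjusted over the 5 classes was 0.5. With arrays scaled to 1 interquartile range the 50 to 54 nt and 55 to 59 nt differences turned negative, at -0.01 and -0.00442, and those at 45 and 60 nt shrank to -0.05 and 0.02. Under normexp, quantile normalization and in the authors' deposited table the 45 nt difference was -0.04, -0.03 and -0.02 and the 60 nt difference 0.08, 0.09 and 0.01, and loess gave 0.08 at 60 nt. Leaving out 1 array gave 0.02 to 0.09 at 50 to 54 nt and 0.05 to 0.14 at 55 to 59 nt, with the lowest values without DR model replicate 2 and replicate 1 in turn, and the highest without DR model replicate 3. The interquartile range itself was narrower under LTF, 1.28 ± 0.06 against 1.45 ± 0.20 (SD, n = 3 each), by -0.17 (exact permutation p = 0.4). That difference was -0.28 without DR model replicate 3, -0.09 without DR model replicate 1, -0.11 under normexp and -0.03 in the authors' deposited table. Its part in the length pattern was not tested.

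**Figure D4:**
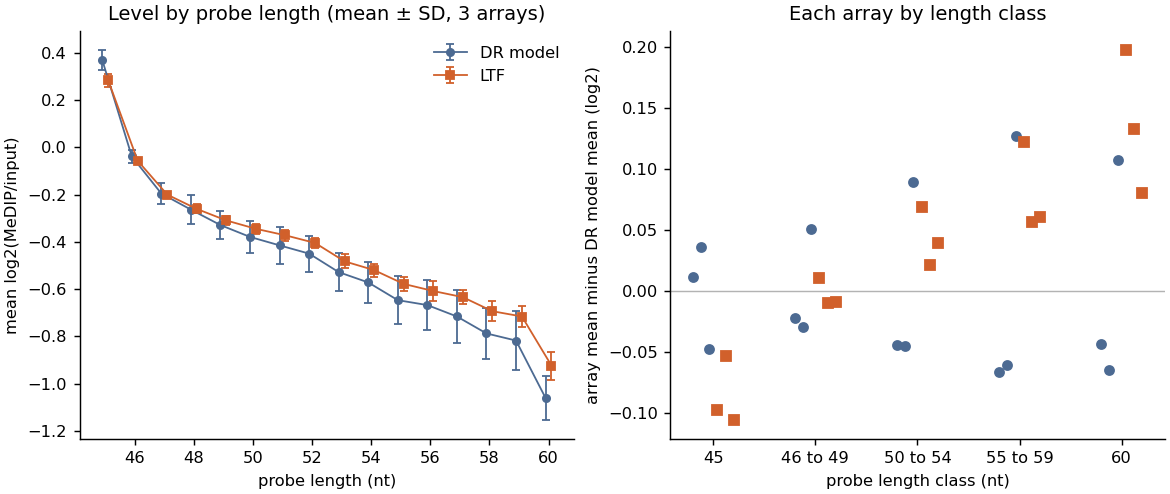
Left, mean log2(MeDIP/input) ± SD over 3 arrays at each probe length (nt) for the DR model (circles) and LTF (squares); right, each array's mean in 5 length classes minus the DR model mean. LTF lies below at 45 nt, where no arrays overlap, and its mean lies above at 60 nt, where 1 DR model array reaches into the LTF values.

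The 151 regions followed the same gradient. Of 2774 regions with a mean probe length of 45 to 46 nt, 3 were higher and 33 lower under LTF, and of 8752 regions over 46 to 50 nt, 11 were higher and 66 lower. Of 3950 regions over 50 to 55 nt, 16 were higher and 12 lower, and of 1306 regions over 55 to 60 nt, 10 were higher and none lower. The median difference over all regions of these classes ran from -0.07 and -0.04 to 0.02 and 0.11. Divided by mean log2 ratio over all arrays into 5 bins of near-equal number, the regions of the lowest bin held 20 higher and 3 lower, and those of the highest bin none higher and 44 lower. The 52 regions that passed after subtraction of probe means showed 13 higher and none lower in the lowest bin and none higher and 21 lower in the highest. Within regions of 45 to 46 nt the median difference was -0.10, -0.07, -0.03, -0.06 and -0.10 from the lowest to the highest bin, the lowest holding 14 regions, so it did not run one way with the ratio there. In the longer classes it was lowest in the highest bin. Over 46 to 50 nt it was -0.0048, -0.0038, -0.019, -0.037 and -0.10, and over 50 to 55 nt 0.05, 0.03, 0.0020, -0.02 and -0.10. Over 55 to 60 nt it was 0.11, 0.10, 0.07, 0.02 and -0.03, the highest bin holding 13 regions.

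Regions with few probes passed more often. The share among the 151 was 2.29% of regions with 3 to 5 probes, 1.01% with 6 to 9, 0.620% with 10 to 19 and none of the 375 regions with 20 or more. After subtraction of probe means the shares were 0.859%, 0.378%, 0.179% and none. In 46 of the 151 regions (30.5%) every measured probe pointed the same way, as in 530 of all regions (3.16%). The 151 were called on means of these same probes, so this share is a description. Under 6 probes were held by 21.2% of the 151 and by 8.32% of all regions.

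Single probes gave a wider view, since no averaging over neighbours enters. Of 169781 probes with a fitted difference, 3460 (2.04%) passed, 1186 higher under LTF and 2274 lower, with differences of -2.53 to 2.79. Of the 1150 such probes in the 151 regions 97 passed (8.43%), and the regions were called on these same probes. Among 45 nt probes 223 were higher and 1501 lower, and among 60 nt probes 362 were higher and 114 lower, while the share that passed was 2.10% and 2.02%. Of 5 bins by mean ratio, the highest held 39 higher and 1285 lower, and in the lowest 358 were higher and 125 lower. The probes that passed lay in 3005 stretches of joined probes, of which 364 held at least 2. In 245 stretches at least 2 pointed the same way, and 158 held both directions. The count ran from 0 to 11502 when 1 array was left out, with 11502 without DR model replicate 3 and 0 without LTF replicate 1 (in limma, with 25543 at an unadjusted p under 0.05).

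By chromosome, LTF medians were slightly lower at 19 of 22 chromosomes, counting the unplaced sequence (Un) as 1. The median difference over all regions was -0.02. The lowest difference was at chromosome 12, where the array medians averaged 0.14 ± 0.01 under LTF against 0.19 ± 0.03 for the model (SD, n = 3 each), which is -0.05 with no overlap. Under normexp and quantile normalization it was -0.02 at chromosome 12, and -0.03 in the authors' deposited table. Chromosome 6 and Un followed with -0.03 each, and both overlapped. Chromosome 6 stood at -0.0062 under normexp, -0.01 with quantile normalization and in the authors' deposited table, and -0.02 without LTF replicate 3. The highest differences were at X, 0.02, 13, 0.0073, and 15, 0.0021, each with overlap. The differences at X, 13 and 15 turned negative with loess or with centring within length classes, and that at Un turned positive under normexp. The median over all regions moved too, to -0.04 with loess, -0.05 with length centring and 0.0021 under normexp. With loess and length centring, X, 13 and 15 stayed above that median. Groups did not overlap at 7 chromosomes, and the smallest exact permutation p adjusted over chromosomes was 0.314. Regions among the 151 made up 0.397% of those on chromosome 2 to 1.46% on chromosome 13, and 8 of 22 chromosomes held no higher one. After subtraction of probe means 0 regions passed on chromosome 2 and 1 on chromosome 13, against 4 and 8 before it. On chromosome 11 the count was 4 either way, but not of the same regions. They were 2 higher and 2 lower before subtraction, and 3 higher and 1 lower after it.

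The difference sat more often in the MeDIP channel. With each channel centred on its array median, the MeDIP difference exceeded the input difference in size at 111 of the 151 regions (73.5%) and at 53.6% of all regions. Among the higher regions the share was 75%, against 65.7% of all regions with a positive difference. Among the lower regions it was 73.0%, against 44.5% of all regions with a negative difference. These channel means were not adjusted for missing spots. At H1 the MeDIP signal stood at -0.03 under LTF against -0.93 in the DR model, and the input signal at 0.22 against -0.11. At H4 the MeDIP signal was alike, -2.77 and -2.78, and the input signal was lower under LTF, -2.67 against -1.94. The 151 regions lost 7.81% of their spots to outlier marks on the LTF arrays and 0.781% on the DR model arrays, against 5.30% and 0.985% over all regions. In the 47 regions the shares were 4.09% and 0.292% on the higher side and 3.63% and 0.806% on the lower side.

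In the other groups, the 47 regions gave the following levels, as medians of probe-adjusted group means. The 15 higher regions stood at -0.94 in the DR model and -0.37 under LTF, with -0.95 in controls, -0.72 with CaD and -0.79 with the other formula. The 32 lower regions stood at 0.69 in the DR model and 0.30 under LTF, with 0.73 in controls, 0.39 with CaD and 0.37 with the other formula. The regions were chosen on the LTF and DR model arrays, so these levels are a description. At the chr14 region of the longest run, controls read 1.63 ± 0.31 (SD, n = 3), CaD 0.75 ± 0.10 (SD, n = 3) and the other formula 0.85 ± 0.31 (SD, n = 3), beside 0.84 ± 0.03 under LTF and 1.66 ± 0.29 for the model (SD, n = 3 each). At H1, controls read -0.89 ± 0.11 (SD, n = 3), CaD -0.72 ± 0.10 (SD, n = 3) and the other formula -0.81 ± 0.07 (SD, n = 3), nearer to the DR model than to LTF. Most other higher regions with a name differed from H1 in this. At H2, CaD and the other formula averaged -0.33 and -0.38, nearer to LTF (-0.26) than to the DR model (-0.78). By probe-adjusted means both were nearer to LTF at H3, H5, H6, H7, H8, H10 and H12 too. At H4, H9 and H11 they divided. Without the adjustment both were nearer to the DR model at H9, and they divided at H12.

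LTF was also set directly against the other treated groups, which were scanned apart from it. Against CaD, which was likewise given with insulin, 3 regions passed (0.0179%), all lower under LTF, and L1 was among them. After subtraction of probe means none passed in limma, with 909 at an unadjusted p under 0.05. Against the other formula no region passed in limma, with 1202 at an unadjusted p under 0.05, and none after subtraction, with 912. These comparisons share the LTF arrays with the main one, and a p that misses the threshold does not show that the treatments act alike.

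**Figure D5:**
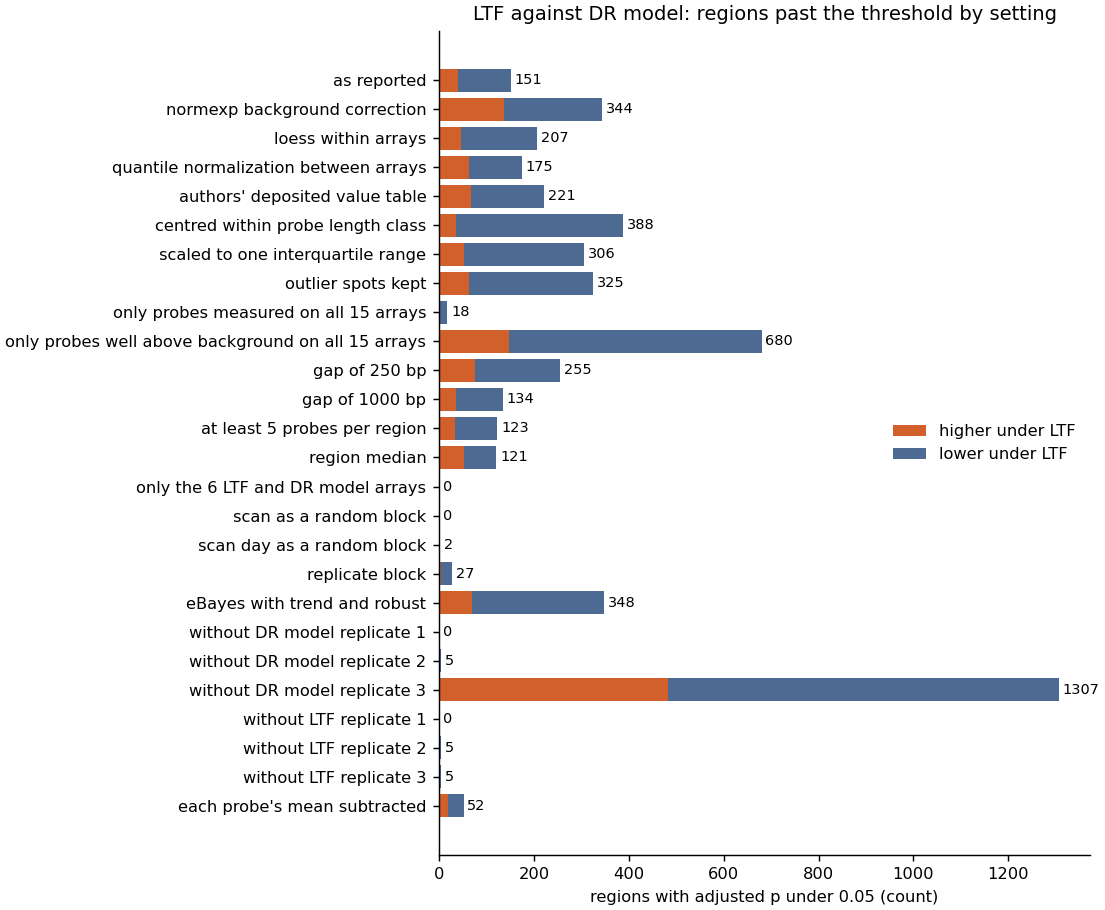
Number of regions with an adjusted p under 0.05 for LTF against the DR model as reported (top bar) and under the alternatives drawn, with combinations of subtracted probe means and a further change left out, split into higher (orange) and lower (blue) under LTF. The counts drawn run from 0 to 1307, and lower regions outnumber higher ones as reported (40 and 111) and under normexp (138 and 206).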

How the data were processed

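MeDIP and input DNA of 15 rats, 1 array each, were measured on 2-colour Agilent arrays. Per the file headers, the deposited spot intensity values came from Feature Extraction 11.0.1.1, whose processed signals had background subtracted and dyes normalized, with positions on rn4. The deposited files also hold the authors' log10 ratio per spot. It matched the processed signals, which were used in its place. The value table that the authors deposited was read as log2, with base, centring and direction not given in the sources used here, and served as an alternative.

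Ratios were log2(Cy5/Cy3) of the processed signals. The 6856 control spots and outlier spots were left out, and arrays were centred on their median. Region means entered limma 3.58.1 (lmFit, eBayes, R 4.3.3) with 5 groups and all 15 arrays, and Benjamini-Hochberg adjustment. Named regions are, in each direction, the 12 of smallest p whose arrays did not overlap and whose adjusted p was under 0.05, and the 3 longest runs. Length classes and chromosomes were tested by exact permutation over 6 arrays, whose number limits the precision. The files give a median but no mean signal for each spot, so normexp (offset 50) used medians. Gene lists and blood cell markers could not be used without gene names. The members and lists were chosen with earlier results of these data known. The fit was tested on simulated data. Replicates are separate rats per the labels.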

Additional observations from a re-analysis of the deposited data

How the results depend on the processing

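The number of arrays, the separate LTF scan and the missing LTF spots limit these counts. Regions that passed (higher and lower) numbered 151 (40 and 111) as reported. They were 344 (138 and 206) with normexp, 207 (47 and 160) with loess, 175 (64 and 111) with quantile normalization, 221 (68 and 153) in the authors' deposited table, 388 (37 and 351) when centred within length classes, 306 (52 and 254) when scaled to 1 interquartile range and 325 (64 and 261) with outlier spots kept. They were 18 (3 and 15) with probes measured on all 15 arrays, 680 (148 and 532) with probes well above background, 255 (77 and 178) with a gap of 250 bp, 121 (53 and 68) with region medians and 348 (69 and 279) with a trended robust eBayes. Gaps of 1000 bp and at least 5 probes gave 134 and 123. A fit of the 6 arrays alone gave 0 in limma (0 and 0, with 2331 at an unadjusted p under 0.05). Scan as a random block gave 0 (0 and 0) and scan day 2 (1 and 1). With the replicate number as a block 27 passed (5 and 22). Same-numbered arrays correlated at -0.08, -0.06 and -0.11 in their deviations from the group means, none of them best with its own number. Deviations cancel within a group, which ties these correlations to one another. They therefore cannot decide whether same-numbered arrays are paired. Leaving out 1 array gave 0 to 1307 (0 to 483 and 0 to 824).

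With each probe's mean subtracted, added after the data were seen, 52 passed (19 and 33), 0 to 1569 (0 to 591 and 0 to 978) on leaving out 1 array, 0 (0 and 0, with 1407 at an unadjusted p under 0.05) with the scan block and 0 (0 and 0, with 2931) with the replicate block. Single probes numbered 3460, and 7656 with normexp, 1939 with loess, 2230 with quantile normalization, 6956 with outlier spots kept, 0 with the scan block (14430 unadjusted), 813 with the replicate block and 0 to 11502 on leaving out 1 array. Runs of at least 6 probes numbered 0 higher and 4 lower. A gap of 250 bp gave 4 higher runs, normexp 67, and quantile normalization 15 higher and 49 lower.

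The 46 to 49 nt difference turned to 0.0082 under normexp and ranged from -0.0175 to 0.0229 on leaving out 1 array, and interquartile scaling turned 50 to 54 nt to -0.0115 and 55 to 59 nt to -0.00442. Chromosome 13 turned to -0.00903 in the authors' table, -0.0297 with length centring, -0.0208 with loess and -0.00765 with normexp. Chromosome 15 turned to -0.0223 with length centring and -0.035 with loess. Un turned to 0.00922 with normexp. X turned to -0.00336 in the authors' table, -0.0447 with length centring and -0.0310 with loess. On leaving out 1 array these ranged for 13 from -0.00576 to 0.0199, for 15 from -0.00822 to 0.0158, for Un from -0.0667 to 0.000421 and for X from -0.0155 to 0.0351. The median difference over all regions was -0.0234 as reported and -0.0397 with loess. It was -0.0520 with length centring, 0.00206 with normexp and -0.00846 in the authors' table. The cause was not tested. Of 779 values of the 24 named regions under alternatives, 339 still passed, 439 kept the direction only and 1 reversed: L1 at 0.0099 with probe means subtracted and DR model replicate 3 left out.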
